A study of Mus musculus with 3 samples.

Results

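The 6 genes described here encode 4 receptors for sphingosine-1-phosphate (S1pr1, S1pr2, S1pr3 and S1pr4) and the 2 proteins through which S1pr2 keeps B cells inside follicles (Gna13 and Arhgef1). They were chosen by symbol among the 32285 genes of the count tables. The rule did not use their values, but earlier results of these data were known. Their messenger RNA was counted in single splenic B cells from 3 kinds of mice, with 1 library of each. The WT library came from mice with no transgene. The 3′RR-BCL2 library came from mice with a randomly integrated human BCL2 cassette that carries its own P1 and P2 promoters and is placed under the core enhancers of the IgH 3′ regulatory region. The Igκ-BCL2 library came from knock-in mice in which this BCL2 cassette replaces the Jκ region, upstream of the Eκ enhancer. The study describes its BCL2 models as hemizygous in general and gives no zygosity for the single-cell libraries. All mice had a mixed B6/129 background. All received a single intraperitoneal injection of sheep red blood cells (SRBCs) and were studied 10 days later. The methods describe magnetic negative selection of B cells for all 3 libraries, while the labels call the WT cells sorted and the cells of both BCL2 libraries whole tissue. How many mice gave each library, and their ages, are not given in the sources used here.

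Sphingosine-1-phosphate (S1P) is a lipid that is plentiful in blood and lymph and scarce inside lymphoid tissue. S1pr1 couples to Gi proteins and draws lymphocytes toward S1P, which lets them leave the tissue. S1pr2 works in the opposite direction: it couples to Gα13, the product of Gna13, which activates the exchange factor encoded by Arhgef1, and this holds germinal center (GC) B cells together in the center of the follicle. S1pr3 is a marker of marginal zone B cells, and S1pr4 is a further receptor found mainly on blood and lymphoid cells.

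The libraries held 11269 barcodes (WT), 7579 (3′RR-BCL2) and 7034 (Igκ-BCL2), of which 9932, 6561 and 6242 passed the cell filter, with median depths of 5031, 5291 and 4838 UMIs per cell (a UMI stands for 1 captured RNA molecule). From 15 to 24 barcodes were shared between a pair of libraries. Of the 7 B cell identity genes, none was at 0 in any library, and their sum was 8349 to 8866 counts per 1000000 UMIs (CPM), the unit of all levels here. The sum of 10 T cell genes was 4.50 to 10.1 and that of 10 myeloid genes 6.30 to 49.0 CPM, with 1 or 2 T cell genes and 0 to 3 myeloid genes at 0. Xist was at 1719 CPM in the 3′RR-BCL2 library and at or under 0.174 in the others, and Ddx3y was at 0.0249 there and at 192 and 202 in the others, so that sex cannot be told apart from genotype in the comparisons with 3′RR-BCL2, while WT and Igκ-BCL2 were alike in these genes. Genotype and library cannot be told apart in any comparison. In follicular cells, 4 heat-shock genes (Hspa1a, Hspa1b, Hsph1 and Dnajb1) summed to 154 (WT), 2044 (3′RR-BCL2) and 4503 CPM (Igκ-BCL2).

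Cells were assigned to stages by counting marker genes with a UMI, and the 6 genes were used in no assignment. The stage names are short for follicular-like, transitional-like, marginal zone-like, interferon-activated-like, activated-like and GC-like cells, the last divided by proliferation genes into non-dividing and dividing. Such a class is a range along a marker count: of the cells passing the GC minimum of 3 of 11 markers, 28 of 128 (WT), 231 of 1048 (3′RR-BCL2) and 157 of 527 (Igκ-BCL2) sat at the minimum, and 183, 351 and 256 more cells held 1 marker fewer. There were 73, 876 and 472 non-dividing and 49, 133 and 36 dividing GC cells in WT, 3′RR-BCL2 and Igκ-BCL2, against 7470, 4218 and 4854 follicular cells. The gates count marker genes, so their place among the leading genes of a class was fixed in advance and checks no name. Markers of its stage were among the 10 leading genes of each of these 7 classes in every library, with Cd55 alone or with Ighd in follicular cells and proliferation genes in the lead in dividing GC cells. Lyz2, a gene of the myeloid list, led the WT interferon-activated class, where that list was at 1214 CPM. Lyz2 and Cxcl2 were among the leading genes of the Igκ-BCL2 marginal zone class, where the list was at 40.1. The leading genes of follicular cells also held Wfdc17 in the 3 libraries and Ccl5 in 3′RR-BCL2, which are in no marker list. Non-dividing GC cells (median 7030 to 9098 UMIs) and dividing GC cells (9264 to 10163) were deeper than follicular cells (4524 to 4785).

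The promoters of the 3 genes that were higher in GC than in follicular cells are shown first. Windows run from 250 bases before to 50 after the start of the RefSeq transcript (GRCm38.p6), and capitals mark matches on either strand to the KLF core CACCC, which reads as its complement on the other strand, or to the cAMP response element TGACGTCA. The S1pr2 window lies at chr9:20976744-20977043 on the minus strand, the S1pr3 window at chr13:51408368-51408667 on the plus strand and the Gna13 window at chr11:109362544-109362843 on the plus strand.
S1pr2: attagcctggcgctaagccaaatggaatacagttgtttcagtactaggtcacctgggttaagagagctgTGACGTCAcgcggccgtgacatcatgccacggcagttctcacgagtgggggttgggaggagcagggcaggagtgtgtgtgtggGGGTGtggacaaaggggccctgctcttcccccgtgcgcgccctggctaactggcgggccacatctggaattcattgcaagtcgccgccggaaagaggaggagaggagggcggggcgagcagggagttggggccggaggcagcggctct
S1pr3: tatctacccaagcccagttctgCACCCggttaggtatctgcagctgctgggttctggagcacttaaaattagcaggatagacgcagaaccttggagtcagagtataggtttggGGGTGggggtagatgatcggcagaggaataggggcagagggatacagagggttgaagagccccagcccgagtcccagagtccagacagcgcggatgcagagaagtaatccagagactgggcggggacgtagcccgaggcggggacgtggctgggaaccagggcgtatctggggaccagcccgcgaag
Gna13: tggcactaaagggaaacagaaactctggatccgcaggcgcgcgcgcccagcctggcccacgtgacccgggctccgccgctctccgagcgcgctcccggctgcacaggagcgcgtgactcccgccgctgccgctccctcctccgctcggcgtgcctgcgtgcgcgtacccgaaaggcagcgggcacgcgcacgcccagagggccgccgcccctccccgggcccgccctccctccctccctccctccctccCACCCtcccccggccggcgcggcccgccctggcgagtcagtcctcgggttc
The S1pr2 window held a full TGACGTCA 181 bases before the start and 1 KLF core 98 bases before it. The S1pr3 window held 2 KLF cores, 228 and 137 bases before the start, and the Gna13 window 1, which begins on the last base before the start and runs over it. KLF cores are common, occurring in 57.5% of the 32851 promoter windows of the table, whereas TGACGTCA occurred in 1.79%. The letters GTAAACA (FOXO) and TTCNNNGAA (BCL6) and the MEF2 motif had no match in these windows and occurred in 3.65%, 8.30% and 3.69% of all windows. The 5 motifs were chosen after the windows had been seen, and a match is a description of letters only. Windows were found for 5 of the 6 genes. Those of the genes that were not higher in GC cells also held a KLF core, 107 bases before the start for S1pr4 and 102 bases before it in 1 window of Arhgef1. S1pr1 had no entry.

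In the annotation of GRCm38, S1pr1 lies at chr3:115710433-115715072 (minus strand), S1pr2 at chr9:20962361-20976781 (minus), S1pr3 at chr13:51408639-51422797 (plus), S1pr4 at chr10:81497747-81500132 (minus), Gna13 at chr11:109362831-109401369 (plus) and Arhgef1 at chr7:24902912-24926594 (plus). A pair of these genes overlap a gene of the opposite strand, S1pr3 with the lincRNA Gm32834 and Gna13 with the antisense gene Gm11696 at its start. Both have count rows of their own, with 42 and 1307 UMIs in all kept cells. How the counting treated strand is not given in the sources used here.

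**Figure D1:**
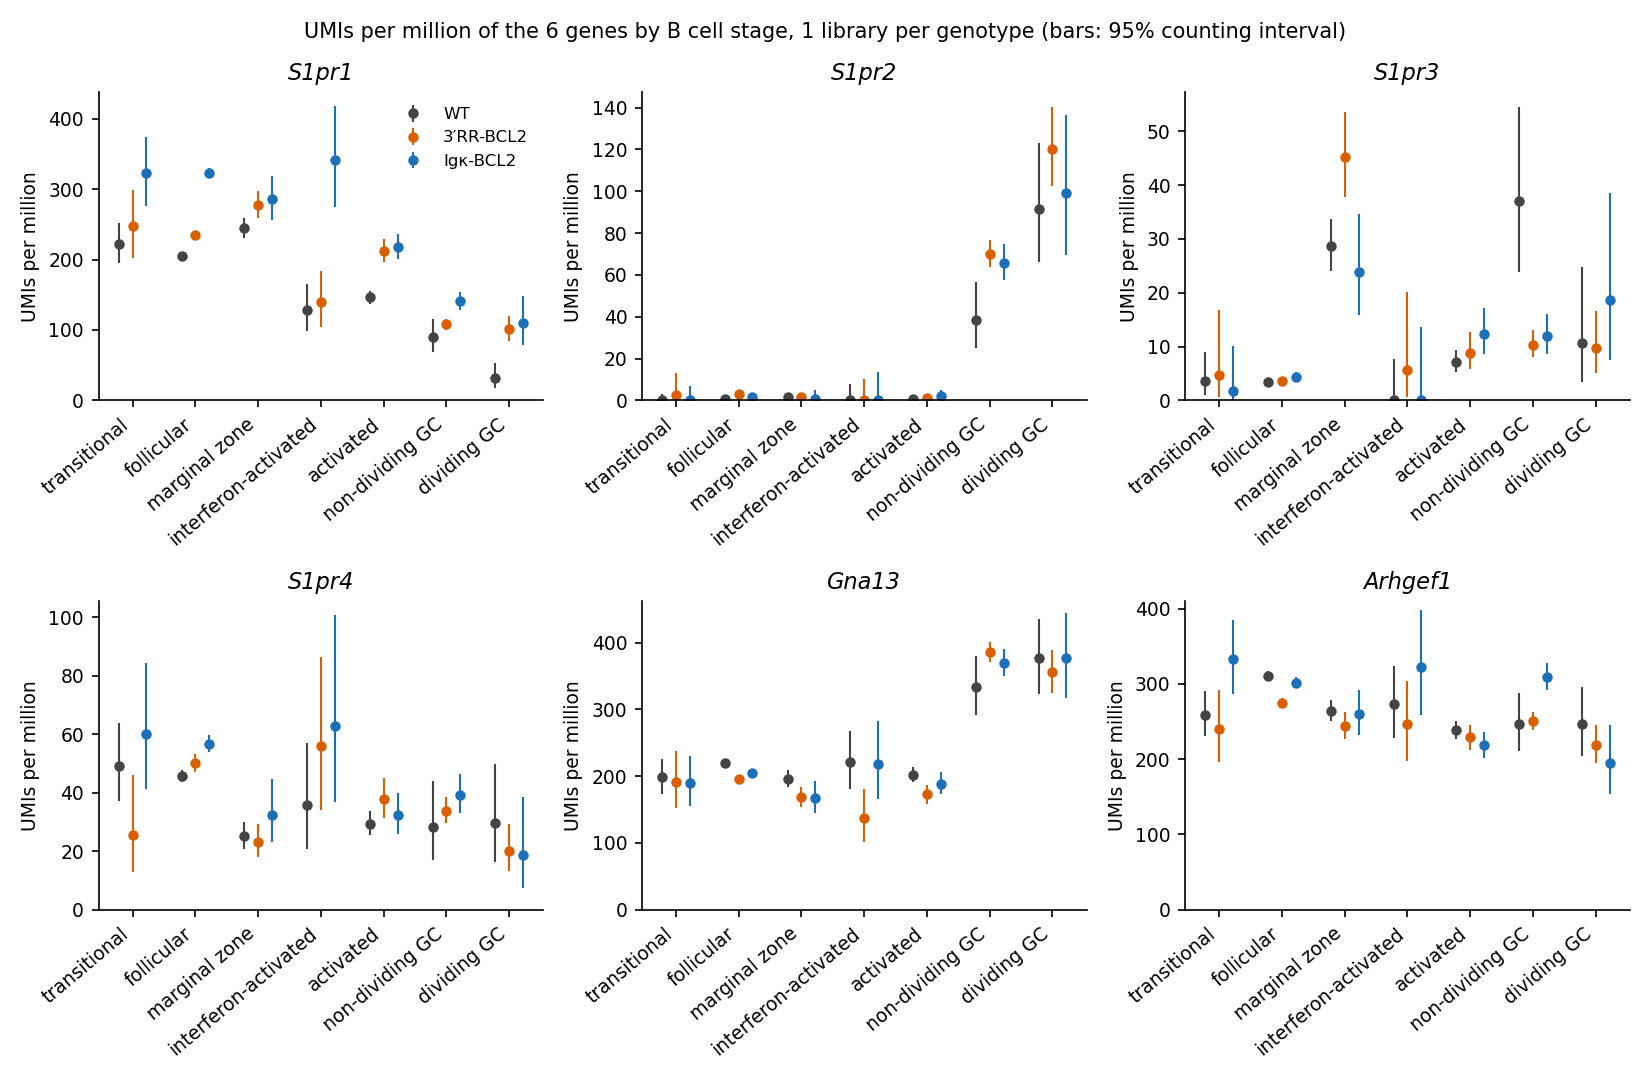
CPM of the 6 genes (vertical axes, each from 0) in 7 B cell stages (horizontal axis), with 1 point per library and bars for the exact Poisson 95% interval, which covers counting error only. S1pr2 stood at 38.5 to 120 CPM in GC cells and at or under 2.96 in the other stages, while S1pr1 was lowest in GC cells and Gna13 highest there.

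The first question was how the receptor balance differed between stages. In follicular cells S1pr1, the egress receptor, was at 205 (WT), 235 (3′RR-BCL2) and 323 CPM (Igκ-BCL2). In non-dividing GC cells it was at 90.3, 108 and 140, and in dividing GC cells at 31.9, 101 and 110, so that the GC values of the 3 libraries all lay below the follicular ones and the groups did not overlap. In the fit across 3 libraries with library as a term, S1pr1 was lower in non-dividing GC cells by a log2 fold change of -1.17 ± 0.11 (SE; edgeR adjusted p = 4.77e-11) and in dividing GC cells by -1.55 ± 0.16 (edgeR adjusted p = 8.92e-11). Gating on cells thinned to 2000 UMIs, which removes the depth advantage of GC cells, gave -1.89 for S1pr1 in non-dividing cells. Among resting stages, S1pr1 stood at 222, 247 and 323 in transitional and at 244, 278 and 286 in marginal zone cells. These ranges overlapped the follicular one, and neither difference passed the test (log2 fold change -0.0048 ± 0.13 and 0.21 ± 0.10, edgeR adjusted p = 0.991 and 0.181), although S1pr1 in marginal zone cells passed with 1 more marker required (0.45, edgeR adjusted p = 0.0169) and with thinned gates (0.52, edgeR adjusted p = 0.0404). In activated cells, which express growth and ribosome biogenesis genes, S1pr1 was at 146, 213 and 218, a fall of -0.37 ± 0.10 on the log2 scale (edgeR adjusted p = 0.00681) that was lost without the Igκ-BCL2 library (-0.29, edgeR adjusted p = 0.0776).

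By mean level over the 3 libraries, S1pr1 ran from marginal zone (270 ± 22.1, SD, n = 3) through transitional (264 ± 52.2), follicular (254 ± 61.3), interferon-activated (203 ± 120) and activated (192 ± 39.8) to non-dividing (113 ± 25.5) and dividing GC cells (80.9 ± 42.6). The only neighbors in this order whose ranges did not overlap were activated and non-dividing GC cells.

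S1pr2, the confinement receptor, showed the reverse pattern and the largest change of the 6 genes. Its follicular level was 0.402 CPM (15 UMIs in 7470 cells) for WT, 2.96 (64 UMIs) for 3′RR-BCL2 and 1.52 (36 UMIs) for Igκ-BCL2. In non-dividing GC cells it reached 38.5, 70.2 and 65.8, and in dividing GC cells 91.4, 120 and 99.0. Every GC value lay above every value of the other 5 stages. The S1pr2 log2 fold change over follicular cells was 5.25 ± 0.21 in non-dividing cells (edgeR adjusted p = 1.38e-21) and 6.06 ± 0.26 in dividing cells (edgeR adjusted p = 2.47e-21). Outside the GC, S1pr2 was near the limit of detection: 0.854 to 1.59 CPM in marginal zone cells on 1 to 8 UMIs, 0.583 to 2.18 in activated cells on 3 to 6 UMIs, and 1 UMI in all transitional cells. No UMI of S1pr2 was found in 72, 59 and 48 interferon-activated cells, which allows levels of up to 6.30, 8.39 and 11.1 CPM (the level of 3 UMIs). No fold is given for S1pr2 in these stages.

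Dividing GC cells held more S1pr2 than non-dividing ones in the 3 libraries, a log2 difference of 0.82 ± 0.20 (edgeR adjusted p = 0.00214). This difference was not stable. It was 0.41 with 1 more marker required in each gate (edgeR adjusted p = 0.263) and -0.01 when cells were gated after thinning (edgeR adjusted p = 0.992), a setting in which the Igκ-BCL2 dividing cells (12 cells) were not fitted. With these thinned gates, S1pr2 stood at 90.1, 118 and 115 CPM in non-dividing cells and at 100, 128 and 121 in dividing cells. Of the other genes, S1pr4 (-0.64 ± 0.24, edgeR adjusted p = 0.0388) and Arhgef1 (-0.29 ± 0.11, edgeR adjusted p = 0.0333) were lower in dividing cells. Thus 3 of the 6 genes were called in this comparison, where 27.1% of all 9411 genes were, and with thinned gates none of the 6 was, at edgeR adjusted p of 0.607 to 0.992 for S1pr1, S1pr2, S1pr4 and Arhgef1.

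Downstream of S1pr2, Gna13 rose with it and Arhgef1 did not. In the same order of libraries, Gna13 was at 219, 195 and 205 CPM in follicular cells, at 333, 386 and 370 in non-dividing and at 376, 356 and 377 in dividing GC cells. The lowest Gna13 value in GC cells lay above the highest of the other stages (221). The log2 fold change over follicular cells was 0.86 ± 0.08 in non-dividing (edgeR adjusted p = 7.88e-12) and 0.84 ± 0.09 in dividing cells (edgeR adjusted p = 4.87e-10), and dividing and non-dividing cells differed by -0.02 ± 0.09. In the remaining stages Gna13 stayed between 137 and 221, and none of the 4 comparisons with follicular cells passed the test (log2 fold changes -0.18 to -0.02).

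Arhgef1, the exchange factor that activates RhoA, was at 311, 274 and 301 in follicular cells, at 247, 251 and 309 in non-dividing and at 247, 218 and 195 in dividing GC cells. The non-dividing values overlapped the follicular range, and their log2 fold change of -0.11 ± 0.08 did not pass the test (edgeR adjusted p = 0.284). Arhgef1 was lower in dividing GC cells (-0.40 ± 0.10, edgeR adjusted p = 8.32e-04, lost with thinned gates at -0.38 and edgeR adjusted p = 0.0874) and in activated cells (238, 229 and 218 CPM, -0.34 ± 0.08, edgeR adjusted p = 0.0013). It did not differ past the test in marginal zone cells (-0.13 ± 0.08, edgeR adjusted p = 0.331).

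S1pr3 separated marginal zone from follicular cells. It was at 28.6 (WT), 45.2 (3′RR-BCL2) and 23.9 (Igκ-BCL2) CPM in marginal zone cells and at 3.43, 3.52 and 4.30 in follicular cells, with a log2 fold change of 3.24 ± 0.23 (edgeR adjusted p = 3.56e-14). S1pr3 was also higher in activated cells, at 7.15, 8.81 and 12.3 (1.28 ± 0.27, edgeR adjusted p = 5.61e-04). Activated cells held more marginal zone markers than follicular cells (mean 1.01, 0.95 and 0.86 per cell against 0.70, 0.64 and 0.51). The part of these markers in the S1pr3 level was not tested. In non-dividing GC cells S1pr3 was at 37.0, 10.3 and 11.9 and in dividing GC cells at 10.6, 9.66 and 18.7, above follicular cells in each library. The log2 fold change was 1.78 ± 0.27 in non-dividing (edgeR adjusted p = 1.20e-06) and 1.59 ± 0.50 in dividing GC cells (edgeR adjusted p = 0.00793). With thinned gates these values were 1.01 (edgeR adjusted p = 0.00951) and 0.72 (edgeR adjusted p = 0.436). The WT value of S1pr3 in non-dividing cells, 37.0 CPM on 25 UMIs, fell to 14.4 with 1 more marker required and to 7.31, on 3 UMIs, with thinned gates, while the other libraries stayed between 9.99 and 14.3. Markers of the marginal zone were more numerous in the WT non-dividing GC cells (mean 1.23 per cell) than in those of 3′RR-BCL2 (0.91) and Igκ-BCL2 (0.89), and their part in the S1pr3 value was not tested. Cells that passed more than 1 gate and were left out of all stages held S1pr3 at 25.0, 26.8 and 18.0. GC cells were among those left out only where they also passed the plasma gate. GC cells that also passed the marginal zone gate stayed in the GC values above.

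By the mean over libraries S1pr4 was highest in interferon-activated and follicular cells, and it fell in the marginal zone, activated and GC stages. It was at 45.7, 50.2 and 56.8 CPM in follicular cells, at 25.0, 23.1 and 32.5 in marginal zone cells, at 29.3, 37.7 and 32.3 in activated cells, and at 28.1, 33.8 and 39.3 in non-dividing GC cells. None of these lower ranges overlapped the follicular range. The log2 fold changes of S1pr4 over follicular cells were -0.87 ± 0.12 in marginal zone (edgeR adjusted p = 1.34e-06), -0.59 ± 0.11 in activated (edgeR adjusted p = 5.47e-05), -0.55 ± 0.11 in non-dividing GC (edgeR adjusted p = 1.06e-04) and -1.20 ± 0.21 in dividing GC cells (edgeR adjusted p = 8.65e-06). In interferon-activated cells S1pr4 was at 35.7, 56.0 and 63.0 and in transitional cells at 49.2, 25.7 and 60.1, and both ranges overlapped the follicular one.

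Counted together, 5 of the 6 genes passed the test in non-dividing GC cells against follicular cells (3 higher, 2 lower), where 42.9% of the 9411 genes tested did, and 6 of 6 in dividing GC cells (3 higher, 3 lower), where 50.4% did. The median log2 fold change of the 6 was 0.37 and 0.22, against 0.02 and -0.01 over all genes. In marginal zone cells 2 of 6 passed (16.0% of all genes) and in activated cells 4 of 6 (21.0%). In transitional and interferon-activated cells edgeR called 0 of 6 (9.19% and 3.51% of all genes), as did DESeq2, and none had an unadjusted p under 0.05 (the lowest was 0.0603 for Arhgef1 in transitional and 0.0565 for S1pr1 in interferon-activated cells).

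Genes that supply S1P, control its receptors or act beside Gα13 were taken as 3 lists. Of 10 genes for making, exporting and degrading S1P, 5 were abundant enough to test, and none was higher and 2 were lower in non-dividing GC cells, with a median log2 fold change of -0.19. These 2 of 5 compare with 42.9% of all genes called in either direction. The lower ones were Spns2, an S1P exporter (12.2, 11.5 and 17.4 CPM in follicular against 2.96, 2.41 and 5.81 in GC cells, -1.89 ± 0.24), and Plpp3, a lipid phosphatase that degrades S1P outside the cell (12.02, 10.9 and 7.21 against 10.4, 1.96 and 0.553, -2.18 ± 0.31). Plpp3 was higher in marginal zone cells (0.97 ± 0.18). Sphk2 and Sgpl1, which make and cleave S1P, were measured at 0.09 ± 0.16 and 0.18 ± 0.12 and did not pass. Sphk1, Mfsd2b, Sgpp2, Plpp1 and Plpp2 were too low to test.

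Of 20 genes for receptor control and egress, 18 were tested, and 5 were higher and 8 lower in non-dividing GC cells (median -0.19), beside 42.9% of all genes called. Klf2, the transcription factor that drives S1pr1 in resting lymphocytes, fell from 1486, 1908 and 1841 CPM in follicular cells to 701, 748 and 1080 in non-dividing GC cells (-1.07 ± 0.09, edgeR adjusted p = 2.76e-12). Arrb1, a β-arrestin that desensitizes receptors, changed by -1.39 ± 0.22 and Tagln2, an actin-binding protein, by -1.16 ± 0.13. Cd69, whose product removes S1pr1 from the cell surface, was lower by -0.48 ± 0.08. The higher genes included regulators of G protein signaling: Rgs1 rose from 90.6, 139 and 147 to 598, 791 and 769 (2.54 ± 0.10, edgeR adjusted p = 9.40e-23), Rgs10 from 3.19, 3.84 and 3.62 to 59.2, 36.4 and 24.1 (3.24 ± 0.20), and Rgs2 by 0.87 ± 0.09. Rgs10 was also higher in marginal zone cells, at 48.3, 56.4 and 26.5 (3.76 ± 0.19). In dividing GC cells 5 of the 18 were higher and 7 lower, beside 50.4% of all genes called, with Klf2 at -2.31 ± 0.11. S1pr5, the receptor outside the 6 genes, was represented by 3 UMIs in follicular cells of WT and by none in those of the other libraries.

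Of 15 genes of G12/13 signaling, 13 were tested, and 2 were higher and 5 lower in non-dividing GC cells (median -0.14), beside 42.9% of all genes called. Those higher were Arhgef12, another exchange factor acted on by Gα12 and Gα13 (16.9, 16.0 and 16.9 against 26.6, 35.6 and 41.2 CPM, 1.15 ± 0.14), and Gna12, which encodes Gα12 (12.3, 11.8 and 11.3 against 17.8, 18.1 and 26.0, 0.87 ± 0.18). Those lower were Arhgef11 (-0.43 ± 0.13), Ezr (-0.48 ± 0.08), Msn (-0.32 ± 0.07), Diaph1 (-0.27 ± 0.08) and Rhoa (-0.19 ± 0.07). Rock1 and Rock2, the kinases below RhoA, were measured at -0.02 ± 0.08 and -0.04 ± 0.09 and did not pass.

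**Figure D2:**
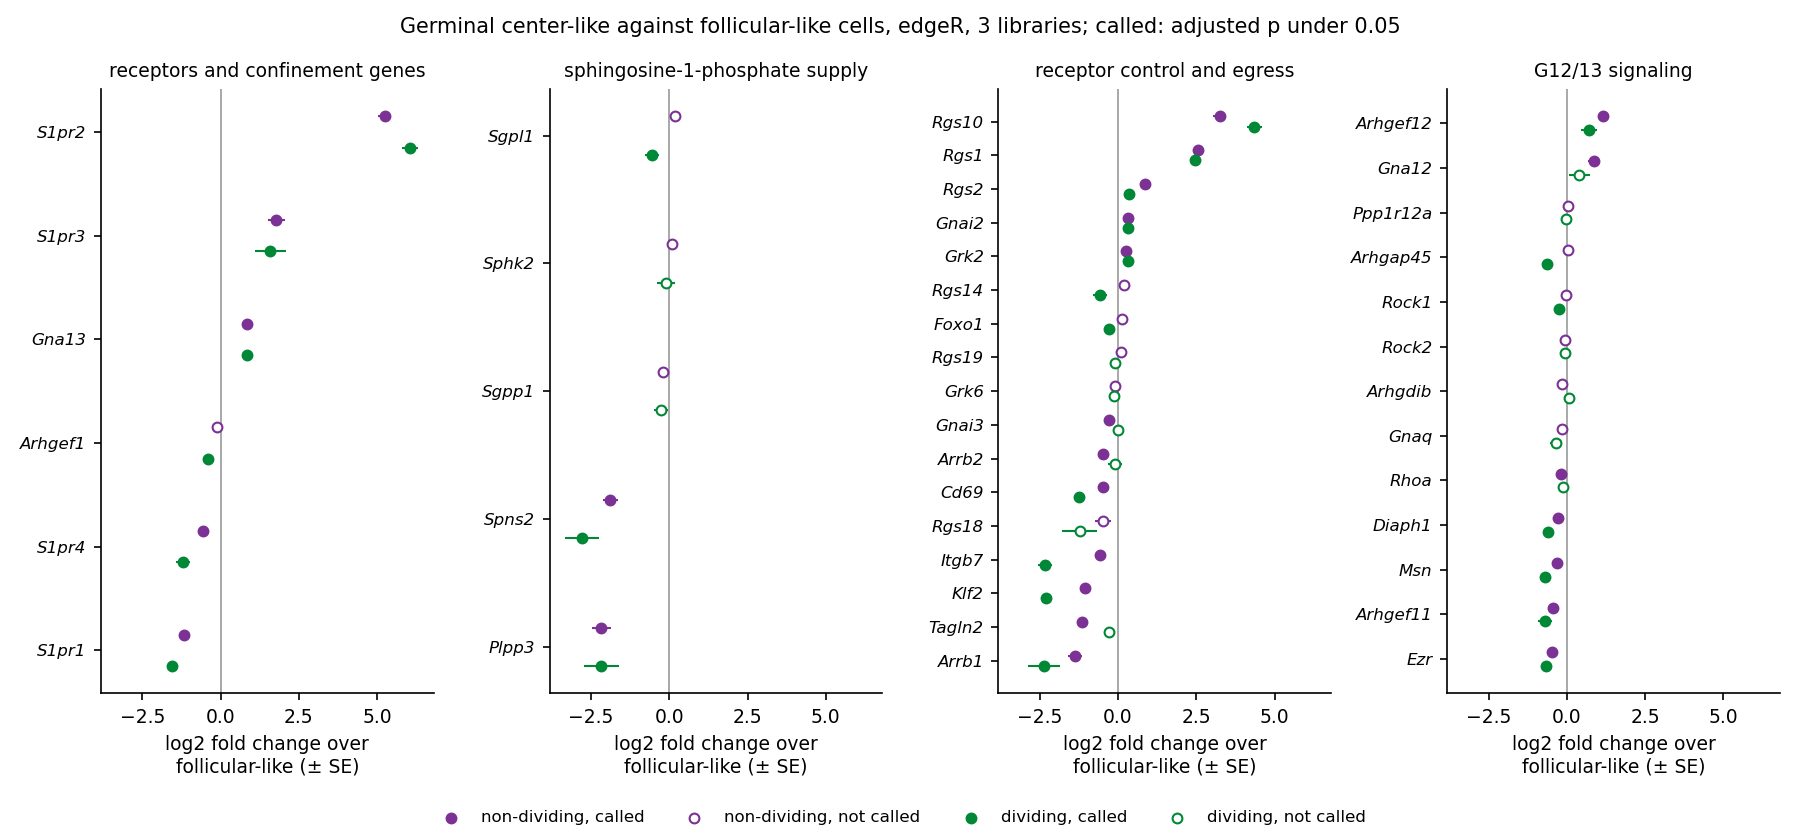
Log2 fold changes over follicular-like cells (horizontal axes, with SE) of the 6 genes and of tested genes of 3 lists (vertical axes) in non-dividing and dividing GC-like cells, from edgeR over 3 libraries, with filled points for adjusted p under 0.05. S1pr2 (5.25 and 6.06) stands at the right of its panel and S1pr1 (-1.17 and -1.55) at the left, and Rgs10 stands at the right of the receptor control list.

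The change of receptors along GC identity was then followed without a gate, by thinning each cell to 2000 UMIs and grouping cells by the number of GC markers found (shallower cells, 135 to 178 per library, were left out). From 0 to 5 or more markers, S1pr2 went from 0.456 to 45.5 CPM (WT), from 2.23 to 121 (3′RR-BCL2) and from 1.02 to 110 (Igκ-BCL2). At 1 marker S1pr2 was at 2.30, 17.1 and 7.45, and at 2 markers at 37.5, 70.5 and 57.4. S1pr1 went from 211 to 45.5, from 241 to 46.0 and from 321 to 110, with little change at 1 marker (220, 215 and 298). Klf2 went from 1396 to 90.9, from 1815 to 391 and from 1787 to 310, while Gna13 went from 215 to 386, from 188 to 420 and from 198 to 440. The steps between were not all in one direction: Gna13 was at 140 in WT cells with 3 markers, Klf2 went from 734 to 910 between 3 and 4 markers in Igκ-BCL2, S1pr1 from 76.8 to 114 in 3′RR-BCL2, and S1pr2 from 100 to 45.5 between 4 and 5 or more markers in WT. The WT groups with 2 or more markers held only 20 to 40 cells each, and their intervals were wide: S1pr2 at 5 or more markers in WT rested on 2 UMIs (interval 5.50 to 164).

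**Figure D3:**
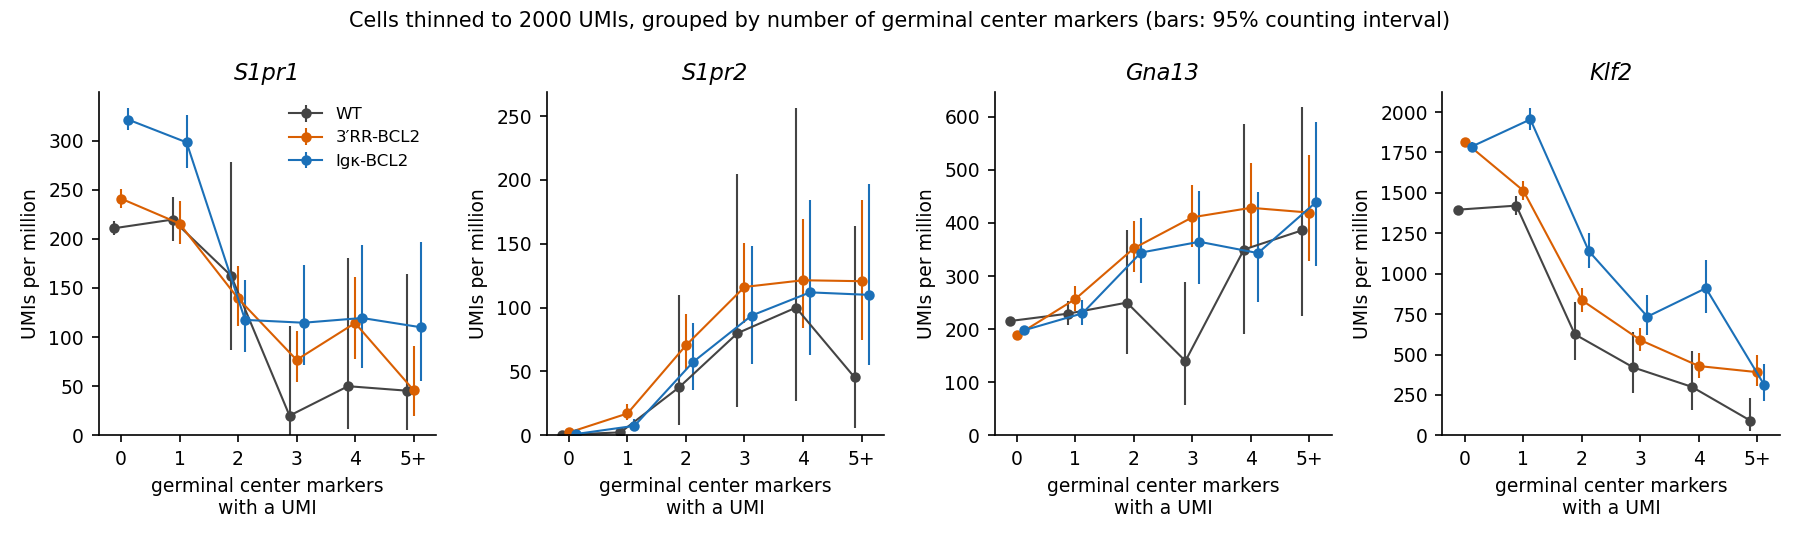
CPM (vertical axes, from 0) of S1pr1, S1pr2, Gna13 and Klf2 against the number of GC markers with a UMI (horizontal axes, 5+ for 5 or more) in cells thinned to 2000 UMIs, with a line per library and exact Poisson 95% intervals. Between 0 and 5 or more markers S1pr2 and Gna13 are higher and S1pr1 and Klf2 lower at the end of each line, with reversals between neighboring groups on the way, and the WT points from 2 markers on rest on 20 to 40 cells.

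Expressed as the share of cells with a UMI at 2000 UMIs, S1pr2 was found in 8.57% of WT (exact Clopper-Pearson 95% interval 3.21 to 17.7%), 13.4% of 3′RR-BCL2 (11.1 to 15.9%) and 11.7% of Igκ-BCL2 (8.88 to 14.9%) non-dividing GC cells. The same share in follicular cells, which should lack S1pr2, was 0.082%, 0.603% and 0.274%, and without thinning the GC shares were 24.7%, 31.6% and 28.4%. The share with S1pr1 was 31.3%, 35.3% and 43.1% in follicular and 18.6%, 18.7% and 20.1% in non-dividing GC cells. The intervals and limits here cover counting error only.

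UMIs of both receptors were counted together in some barcodes, without thinning. Of non-dividing GC cells, 7 of 73 (WT), 104 of 876 (3′RR-BCL2) and 52 of 472 (Igκ-BCL2) held a UMI of each. S1pr1 was found in 38.9%, 37.5% and 38.8% of the cells with S1pr2 and in 36.4%, 42.9% and 48.8% of those without it. The cells with S1pr2 were deeper (median 10700, 8398 and 7947 UMIs against 8951, 6680 and 6937). No background share of S1pr1 and no doublet call was available, so that these counts do not show expression of both genes by 1 cell. In dividing GC cells S1pr1 was found in 9.52% of 21 WT cells with S1pr2 and in 32.1% of 28 cells without it, in 43.4% against 42.1% of 3′RR-BCL2 cells, and in 10 of 25 against 54.5% of Igκ-BCL2 cells.

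The second question was how the genes differed between genotypes within a stage. With 1 library per genotype no test is possible, and the intervals of the ratios cover counting error only. In follicular cells S1pr1 was higher in Igκ-BCL2 than in WT (323 against 205 CPM, 1.58-fold, log2 ratio 0.66, interval 0.61 to 0.70) and than in 3′RR-BCL2 (1.38-fold), and higher in 3′RR-BCL2 than in WT (1.14-fold, log2 ratio 0.19, interval 0.14 to 0.25). In these cells 6.62% of 11543 genes were higher by 1.5-fold or more in Igκ-BCL2 than in WT. The order of the libraries was the same in transitional (222, 247 and 323) and activated cells (146, 213 and 218) and, in a narrower range, in marginal zone cells (244, 278 and 286). In interferon-activated cells S1pr1 was at 341 in Igκ-BCL2 and at 128 and 140 in the others (2.66-fold over WT, log2 ratio 1.41, interval 0.93 to 1.90), on 92, 61 and 50 UMIs. The share of all genes at such a difference was not computed for this class. The myeloid list was at 1214 CPM in the WT cells of this class, and leaving out cells with 3 or more myeloid UMIs removed 1 of the 72. Its part in the S1pr1 value was not tested.

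Heat-shock UMIs moved with S1pr1 across the libraries in follicular cells, and S1pr1 was therefore also taken by the heat-shock level of the cell. Among follicular cells with under 500 heat-shock CPM, S1pr1 was at 203 CPM for WT (6909 cells), 216 for 3′RR-BCL2 (1055 cells) and 303 for Igκ-BCL2 (497 cells, interval 282 to 326). Among those with 5000 or more it was at 242 in 3′RR-BCL2 (452 cells) and 359 in Igκ-BCL2 (1722 cells), and at 360 in WT (3 cells, interval 117 to 840). In the groups between, S1pr1 was at 226, 244 and 285 (500 to 2000) and at 276 (13 cells), 236 and 321 (2000 to 5000). WT and Igκ-BCL2 levels thus overlapped in the upper groups, where WT had few cells, and the part of heat shock in the S1pr1 difference was not tested. S1pr4 was at 45.7, 46.1 and 65.0 in the lowest of these groups and at 45.7, 50.2 and 56.8 in all follicular cells.

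The share of all genes at a 2-fold difference or more in follicular cells was 1.33% for 3′RR-BCL2 over WT, 3.60% for Igκ-BCL2 over WT and 2.50% for Igκ-BCL2 over 3′RR-BCL2. Of the 6 genes only S1pr2 passed this size, at 7.38-fold in 3′RR-BCL2 over WT (64 against 15 UMIs, log2 ratio 2.88, interval 2.06 to 3.80) and 3.78-fold in Igκ-BCL2 over WT (36 against 15 UMIs, log2 ratio 1.92, interval 1.01 to 2.89). GC markers were also more numerous in the follicular cells of these libraries (mean 0.33 and 0.29 per cell, against 0.21 in WT). In cells with 0 GC markers after thinning, S1pr2 was at 0.456, 2.23 and 1.02 on 8, 21 and 10 UMIs. The log2 ratios of Gna13 and Arhgef1 in follicular cells lay between -0.18 and 0.14 in every pair of libraries.

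In non-dividing GC cells S1pr2 was at 1.82-fold in 3′RR-BCL2 and 1.71-fold in Igκ-BCL2 over WT, on 26 WT UMIs (log2 ratios 0.87 and 0.77, the latter with an interval of 0.19 to 1.42). With thinned gates the levels were 90.1, 118 and 115 and their intervals overlapped. Of the 6 genes only S1pr3 reached a 2-fold difference in this stage, being lower in 3′RR-BCL2 and Igκ-BCL2 than in WT (log2 ratios -1.85 and -1.64), where 4.77% and 4.61% of all genes did. These S1pr3 ratios turned to 0.75 and 0.97 with thinned gates, on 3 WT UMIs. No gene of the 6 reached it for Igκ-BCL2 over 3′RR-BCL2, where 1.09% of genes did. Gna13 was at 333, 386 and 370, with an interval of the Igκ-BCL2 over WT log2 ratio from -0.05 to 0.36.

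S1pr1 in GC cells was lowest in WT under each of 3 gate settings. The distance grew with stricter gates in non-dividing cells and did not in dividing cells. In non-dividing cells S1pr1 was at 90.3, 108 and 140 with the gates as set, at 46.3, 97.3 and 121 with 1 more marker, and at 26.8 (11 UMIs), 69.1 and 89.4 with thinned gates. The log2 ratio over WT went from 0.26 to 1.07 and 1.37 for 3′RR-BCL2 and from 0.64 to 1.39 and 1.74 for Igκ-BCL2. In dividing cells the ratio over WT was 3.17-fold for 3′RR-BCL2 (interval of the log2 ratio 0.89 to 2.54) and 3.44-fold for Igκ-BCL2 (0.90 to 2.74), on 15 WT UMIs. The share of all genes at a 2-fold difference or more was not computed for dividing GC cells. The dividing cells were at 31.8, 98.2 and 74.2 with 1 more marker, and at 47.2 (8 UMIs), 94.2 and 96.8 (12 UMIs) with thinned gates, where their intervals overlapped. Among thinned cells with 5 or more GC markers, the log2 ratio of S1pr1 in 3′RR-BCL2 over WT was 0.016, on 8 and 2 UMIs (interval -2.31 to 3.29). That in Igκ-BCL2 over WT was 1.28, on 11 and 2 UMIs (interval -0.92 to 4.49). Thinned to 4000 UMIs, cells with 5 or more GC markers held S1pr1 at 46.5 CPM in WT (8 UMIs, interval 20.1 to 91.6). It was then at 77.9 in 3′RR-BCL2 (91 UMIs, 62.7 to 95.7) and at 92.4 in Igκ-BCL2 (51 UMIs, 68.8 to 121).

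**Figure D4:**
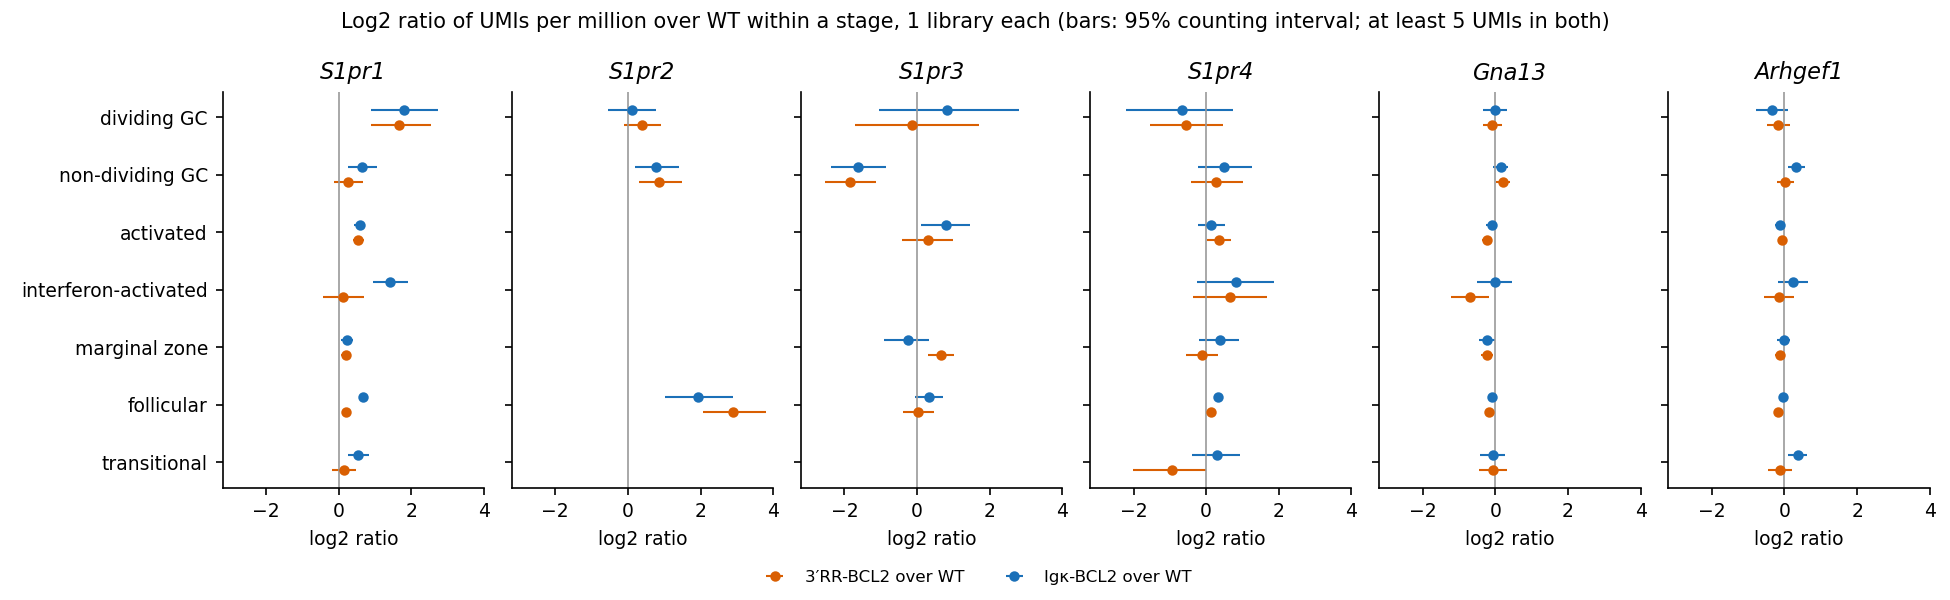
Log2 ratio of CPM over WT (horizontal axes) for the 6 genes in 7 stages (vertical axis), with exact 95% intervals for a ratio of Poisson counts, shown where both libraries had at least 5 UMIs. There is 1 library per genotype. S1pr1 lies right of 0 in each stage for Igκ-BCL2, S1pr2 in follicular cells at 1.92 and 2.88, and Gna13 and Arhgef1 on both sides of 0, from -0.69 (Gna13 in interferon-activated cells of 3′RR-BCL2) to 0.36 (Arhgef1 in transitional cells of Igκ-BCL2).

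Plasma cells could not be compared as a stage: 13, 10 and 16 cells passed the gate of 4 of 11 markers, and genes of other cell types were among its leading genes in 2 libraries (Siglech and Prg2 in WT, Lyz2 in 3′RR-BCL2), so it was left unnamed. With 6 or more plasma markers and without the upper limits and the ribosomal minimum of the filter, a choice made after the data were seen, 5, 2 and 15 cells remained, and 46.1% to 51.8% of their UMIs were immunoglobulin. In the 15 Igκ-BCL2 cells S1pr1 was at 26.0 CPM (10 UMIs) and Gna13 at 31.1 (12 UMIs). With immunoglobulin genes left out of the total, S1pr1 was at 53.9, against 328 in follicular cells, and Gna13 at 64.6, against 208. S1pr2 was represented there by 3 UMIs. The B-1 or memory class held 11, 14 and 29 cells and was not tested.

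Across the 22 sums of a stage in a library with at least 20 cells, the genes whose log2 level was most like that of each receptor were named from 10574 genes with at least 200 UMIs, as a description. For S1pr2 these were Nuggc, Mybl1, Rassf6 and Mef2b, with Pearson r of 0.990 to 0.984. All 4 are markers that defined the GC gate, and Gna13 stood at 0.921. For S1pr1 they were Btg3, Setd1b, Malat1, Armcx5 and Il10ra (0.879 to 0.864), while S1pr2 stood at -0.757. For S1pr3 they were Rps26, Dtx1, Rgs3 and Nebl (0.806 to 0.763), of which Dtx1 and Nebl were marginal zone gate markers, and for S1pr4 Kif21b, Rnf44, Kat6a, Cbx7 and Vps54 (0.895 to 0.829). The sums share libraries, depth and stage sizes, so that they are not independent.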

How the data were processed

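Splenic B cells were measured with the 10x Chromium 3′ kit, with 1 library per genotype and 37433924 to 62777659 UMIs each. The authors deposited UMI counts of each gene in each barcode as whole numbers, and per the labels the processing notes name Cell Ranger 6.1.1 and the builds mm10 and hg38. The tables held mouse gene identifiers, and human BCL2 was not analysed here. The cell filter followed the study: 800 to 4500 genes, no more than 20000 UMIs, mitochondrial UMIs up to 8% and ribosomal protein UMIs from 10% up. A limit set here removed cells holding 2 or more Cd3 or C1q UMIs. No doublet caller was run. Cells outside the GC and plasma gates that passed several of the marginal zone, transitional, interferon, activation and B-1 or memory gates were left out. Cells passing both the GC and plasma gates were left out too. GC cells that also passed any of those other gates stayed GC cells.

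Stages needed a UMI of at least 3 of 11 GC markers (dividing: 3 of 11 proliferation genes), 3 of 10 marginal zone, 3 of 8 transitional, 4 of 9 interferon, 4 of 8 activation, 4 of 11 plasma, 3 of 10 B-1 or memory, or else 2 of 6 follicular markers. The members and all lists were chosen with earlier results of these data known. Counts were summed per library and stage of at least 20 cells and fitted by the edgeR 4.0.16 quasi-likelihood test (R 4.3.3, TMM, filterByExpr) with library as a term. P-values were adjusted by Benjamini-Hochberg over 9411 genes, with 0.05 as threshold. The 3 libraries stand as replicates across genotypes, and the library term takes up overall differences between them. These p-values therefore measure how consistent a stage difference was across these libraries. The plasma and B-1 or memory contrasts were planned and not run, for too few cells. The test was checked on simulated data. Levels are counts per 1000000 UMIs of the class (CPM) with exact Poisson intervals at 95%, and a count of 0 was given the level of 3 UMIs as its limit. Likeness used log2 of CPM plus 10. The text names the 6 genes throughout, list genes called at a 2-fold change in non-dividing GC cells, and the 5 genes most like each receptor. A few genes that this rule names are not reported here, although the counts of their lists include them. Cd69, Rgs2, Gna12, Sphk2, Sgpl1, S1pr5 and the other list genes given beside these were named after their values were seen. Alternatives were another filter, stricter and thinned gates, mixed cells assigned, DESeq2 1.42.0, other scaling, no low-count filter and leaving out each library. Leaving out cells with myeloid UMIs, the stricter plasma class, the 1.5-fold background and the split by heat-shock UMIs were added after seeing the data. Levels were computed in Python 3.11.15 with scipy 1.17.1.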

Additional observations from a re-analysis of the deposited data

Results flagged for a closer look

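S1pr1 in marginal zone cells relative to follicular cells moved one way in 2 libraries and the other way in the third. The log2 ratio was 0.25 in WT (244 against 205 CPM) and 0.25 in 3′RR-BCL2 (278 against 235), and -0.17 in Igκ-BCL2 (286 against 323). With 1 library per genotype the difference between libraries was not tested. The marginal zone levels of the 3 libraries lay closer together (244 to 286) than the follicular levels (205 to 323). In the Igκ-BCL2 marginal zone cells the myeloid list was at 40.1 CPM, against 5.76 in WT and 5.95 in 3′RR-BCL2. Leaving out cells with 3 or more myeloid UMIs kept 133 of these 134 cells. The part of myeloid RNA in the S1pr1 level was not tested.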

How the results depend on the processing

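Against follicular cells, the direction and call of the 6 genes in non-dividing GC cells held in 78 of 78 comparisons with an alternative, those in dividing GC cells in 76 of 78, in marginal zone cells in 61 of 65 and in activated cells in 62 of 65. Of all 364 such comparisons, 329 kept both, 22 lost the call, 6 gained it and 7 turned direction, the last all between dividing and non-dividing GC cells. The causes were not tested. No paired analysis was possible because each genotype has 1 library, while the stage comparisons had library as a term throughout.

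Between dividing and non-dividing GC cells, 3 of the 6 genes were called, against 4 with the looser cell filter, 4 with no filter on low counts, 2 with DESeq2 size factors, 0 with 1 more marker in each gate, 0 with thinned gates, 1 with cells of several gates assigned, 1 with DESeq2, 1 with only these 2 stages fitted, and 0 to 3 when a library was left out. The log2 fold change of S1pr1 was -0.71 with the looser cell filter, -0.47 with no filter on low counts and 0.31 with thinned gates. That of S1pr2 was 0.41 with 1 more marker, -0.0060 with thinned gates, 0.92 with DESeq2 and 0.68 to 0.92 without a library. That of S1pr3 was 0.020 with 1 more marker and -0.46 to 0.099 without a library, the highest without WT. That of S1pr4 was -0.62 with 1 more marker, -0.040 with thinned gates, -0.52 with cells assigned, -0.61 with DESeq2, -0.65 with only these 2 stages and -0.85 to -0.47 without a library. That of Gna13 was 0.011 with DESeq2 size factors, 0.0058 with DESeq2 and -0.070 to 0.074 without a library, the highest without 3′RR-BCL2. That of Arhgef1 was -0.27 with 1 more marker, -0.15 with thinned gates, -0.26 with cells assigned, -0.26 with DESeq2 size factors, -0.29 with only these 2 stages and -0.38 to -0.15 without a library.

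In dividing GC against follicular cells, thinned gates gave 0.72 for S1pr3 and -0.38 for Arhgef1, neither called. In marginal zone cells S1pr1 became called at 0.45 with 1 more marker, 0.52 with thinned gates and 0.20 with only these 2 stages, as did Arhgef1 at -0.15 with only these 2 stages, so that 4 of the 6 were called there. In activated cells S1pr1 was no longer called at -0.37 with the looser filter, -0.38 with DESeq2 and -0.29 without Igκ-BCL2 (range without a library -0.49 to -0.29). The log2 ratios of S1pr3 over WT in non-dividing GC cells turned to 0.75 (3′RR-BCL2) and 0.97 (Igκ-BCL2) with thinned gates, on 3 WT UMIs.

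The number of genes called was 4036 in non-dividing GC cells (2345 to 3757 without a library, the lowest without 3′RR-BCL2), 4742 in dividing GC cells (3010 with thinned gates) and 2555 between them (4195 with the looser filter, 1061 with thinned gates, 1243 to 2258 without a library). It was 1506 in marginal zone cells (848 with thinned gates, 579 to 1279 without a library), 865 in transitional cells (362 with 1 more marker, 382 with thinned gates, 360 to 669 without a library) and 1974 in activated cells (3118 with only these 2 stages, 957 to 1403 without a library).

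Shares of cells followed the depth. Thinned to 1000 UMIs, S1pr1 was found in 18.5%, 20.51% and 27.6% of follicular cells (WT, 3′RR-BCL2, Igκ-BCL2) and in 9.70% (3′RR-BCL2) and 12.3% (Igκ-BCL2) of non-dividing GC cells, and S1pr2 in 1.37%, 6.62% and 6.14% of the latter. Thinned to 4000 UMIs, S1pr1 was found in 47.6%, 52.3% and 60.4% of follicular and 32.3%, 30.4% and 32.2% of non-dividing GC cells, and S1pr2 in 20.8% (3′RR-BCL2) and 18.5% (Igκ-BCL2) of the latter. At that depth, cells with 0 GC markers held S1pr1 at 197.7 (WT) and 302.4 CPM (Igκ-BCL2) and S1pr2 at 1.32 CPM (3′RR-BCL2).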
